A study of Mus musculus with 12 samples.

Results

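The genes described here are the fatty acid hydroxylases of cytochrome P450 family 4 in mouse liver. They comprise 6 Cyp4a genes (Cyp4a10, Cyp4a12a, Cyp4a12b, Cyp4a14, Cyp4a31 and Cyp4a32), 3 Cyp4f genes (Cyp4f13, Cyp4f14 and Cyp4f15) and Cyp4v3. They were chosen by name, as the rows of the deposited transcript table whose RefSeq identifier belongs to these 10 genes, and they take up 15 of its 34933 rows and 10 of its 24071 genes. Of the 15 transcripts, 12 reached 1 FPKM (sequenced fragments scaled to the length of the transcript and to the size of the library) in at least 2 of 6 mice, and all 10 genes had a transcript among them. The other 3, NM_001252539 of Cyp4a31 and NM_001204335 and NM_001204336 of Cyp4f14, were listed at 0 in every mouse.

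CYP4 enzymes are haem monooxygenases of the endoplasmic reticulum that hydroxylate the terminal (omega) carbon of fatty acids. The products are oxidized to dicarboxylic acids by alcohol and aldehyde dehydrogenases and are then shortened in peroxisomes, a route that takes over more of the fatty acid load when mitochondrial oxidation is saturated or during fasting. In mouse liver, Cyp4a10 and Cyp4a14 are known as targets of the nuclear receptor PPARα, Cyp4a12a and Cyp4a12b as male-biased arachidonic acid hydroxylases, Cyp4f14 and its relatives as enzymes that inactivate leukotrienes, and Cyp4v3 as the mouse counterpart of the human gene affected in Bietti crystalline dystrophy.

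Livers came from male C57BL/6J mice in 3 groups, with 2 mice in each group for RNA-seq and the same livers used for FAIRE-seq (formaldehyde-assisted isolation of regulatory elements, which enriches open chromatin). Control mice were kept on standard chow for 28 weeks, had no surgery and are described by the study as age-matched. Sham and VSG mice received a diet with 60 kcal% fat (D12492) from 8 weeks of age, for 14 weeks before surgery and for 14 weeks after it, apart from a liquid diet in the first days of recovery. VSG, vertical sleeve gastrectomy, removed about 80% of the stomach, and the sham operation pressed the isolated stomach with forceps without resection. Sham and Control mice thus differed in diet and in surgery together, which cannot be told apart, whereas VSG and Sham mice shared the diet and an operation.  Values of a group are given as mouse 1 and mouse 2, and the labels do not say that mice with the same number belong together.

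The sequencing depth behind the values is unknown, since FPKM carries no count, and the total FPKM ranged from 420261.2 to 514179.1 over the 6 mice. Liver markers were high in all of them. The 8 hepatocyte markers in the table summed to between 26419.2 and 35342.5 FPKM in 5 mice and to 14065.2 in Sham mouse 2, while 15 acute phase genes summed to 67703.5 in Sham mouse 2, 37665 in Sham mouse 1 and 11865.6 to 28228.2 in the other 4. These sums are led by Fabp1 and Apoa1, and the markers did not move as one. Tat, a tyrosine-degrading enzyme, was at 1376 and 1477 FPKM in Control, 210.2 and 187.6 in Sham and 232.6 and 282.6 in VSG mice. Ass1 of the urea cycle was at 1309 and 1302, at 300.3 and 256.1, and at 334.1 and 545.5. Both Sham and both VSG mice were thus low for them, whereas Hnf4a was listed at 0 in Sham mouse 1 and was highest of all in Sham mouse 2 (73.3). Sham mouse 2 thus stood apart on the sums, not on every marker, and values without it are given beside some of the results that shift with it. Kidney markers summed to at most 0.203 FPKM, with Slc12a1, Aqp2 and Kap at 0, and of the 5 intestinal markers Vil1, Alpi and Cdx2 were at 0 and Lct was at most 0.0071. The fifth, the fatty acid binding protein Fabp2, was at 56.7 and 40.1 FPKM in Control, 68 and 65.9 in Sham and 87.8 and 147.5 in VSG mice, without overlap between any of the groups. In bulk liver, fewer hepatocytes and less RNA per hepatocyte cannot be told apart.

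In the mm9 (NCBIM37) genome with GENCODE vM1 genes, the Cyp4a members form a cluster on chromosome 4 and the Cyp4f members lie together on chromosome 17. On the plus strand are Cyp4a12a (chr4:114971651-115005420), Cyp4a12b (chr4:115084229-115111639), Cyp4a10 (chr4:115190869-115206254), Cyp4a31 (chr4:115236254-115251618) and Cyp4a32 (chr4:115273574-115294207), while Cyp4a14 lies between them on the minus strand (chr4:115158805-115168747). Cyp4f15 (chr17:32822572-32840297) is on the plus strand, and Cyp4f14 (chr17:33042016-33054023) and Cyp4f13 (chr17:33061633-33084347) are on the minus strand. Cyp4v3 is on chromosome 8 on the minus strand (chr8:46391155-46418570).

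How far the reads can separate these genes was examined first, because several are recent copies of each other. The coding sequences of Cyp4a12a and Cyp4a12b were 98.6% identical, with 22 differences in 1527 bases. Cyp4a10 shared 97.2% with Cyp4a32 and 96.6% with Cyp4a31, and Cyp4a31 shared 96% with Cyp4a32. Cyp4a14, by contrast, was at most 77.5% identical to any other member, and the 3 Cyp4f genes were 76.4% to 80.7% identical to each other. RNA reads were 50 bases long, so each transcript was cut into all its 50-base windows and each window was looked up in the transcripts of every other protein-coding gene. All windows of Cyp4a14 were found in no other gene, as were 97.3% of Cyp4f13, 97.3% of Cyp4f14 and 97.9% of Cyp4f15. For Cyp4v3 the figure was 90.9%, and its other windows lay in Klkb1. The share was 69.5% for Cyp4a10, 68.5% for Cyp4a31, 53.2% for Cyp4a32, 51.1% for Cyp4a12a and 50.6% for Cyp4a12b. In the last pair every shared window lay in the partner gene. The transcripts of Cyp4a31 and Cyp4a32 held coding sequence only (1530 bases each), whereas that of Cyp4a10 (2109 bases) reached beyond it. Windows of Cyp4a10 outside its coding sequence thus had no counterpart in its copies, and its share can be too high. Both Cyp4a12 transcripts reached beyond their coding sequence, so the shares of the trio and of the pair are not directly comparable.

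The windows below are from coding exon 2 of the Cyp4a10 trio and coding exon 6 of the Cyp4a12 pair, read 5′ to 3′ on the gene's strand in mm9, and show what a read has to work with. The first is found unaltered in Cyp4a10 (chr4:115192325-115192374), Cyp4a31 (chr4:115237705-115237754) and Cyp4a32 (chr4:115274955-115275004), so a read from it fits all 3 genes.
Cyp4a10, Cyp4a31 and Cyp4a32: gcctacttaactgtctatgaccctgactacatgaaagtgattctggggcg
The next 3 lines give the 50-base coding window in which the trio differed most, with the 8 positions that are not the same in all 3 genes in capitals. They lie at chr4:115192235-115192284, chr4:115237615-115237664 and chr4:115274865-115274914.
Cyp4a10: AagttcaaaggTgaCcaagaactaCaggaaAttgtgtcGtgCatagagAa
Cyp4a31: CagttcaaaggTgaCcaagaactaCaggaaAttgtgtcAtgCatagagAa
Cyp4a32: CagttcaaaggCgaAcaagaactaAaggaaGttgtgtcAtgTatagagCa
The most divergent coding window of the Cyp4a12 pair, at chr4:114999237-114999286 and chr4:115105490-115105539, held only 4 differing positions, again in capitals.
Cyp4a12a: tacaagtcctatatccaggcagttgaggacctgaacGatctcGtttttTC
Cyp4a12b: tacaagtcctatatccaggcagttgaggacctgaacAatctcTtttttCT

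Cyp4a10 and Cyp4a14 were the most abundant members, taking ranks 1 and 2 in each of the 6 mice. Averaged over the 6 mice, levels were 274.2 FPKM for Cyp4a14 and 267.6 for Cyp4a10, followed by Cyp4v3 (99.8), Cyp4a12a (74.6), Cyp4a32 (67.8), Cyp4f14 (57.4), Cyp4a12b (49.6), Cyp4f15 (47.6), Cyp4f13 (29.6) and Cyp4a31 (15.7). The range over the mice of each gene overlapped that of its neighbours in this order, so the order is that of the means and not of separated levels. The 6 Cyp4a genes held between 69.2% and 84.6% of the summed FPKM of all 10 genes in a mouse. Control mice reached a sum of 930.1 and 1636 FPKM, Sham mice 766.6 and 467.8, and VSG mice 892.8 and 1209. Both Sham mice thus lay below the other 4. The mean of the sum was 2.08-fold higher in Control than in Sham and 1.70-fold higher in VSG than in Sham mice.

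**Figure D1:**
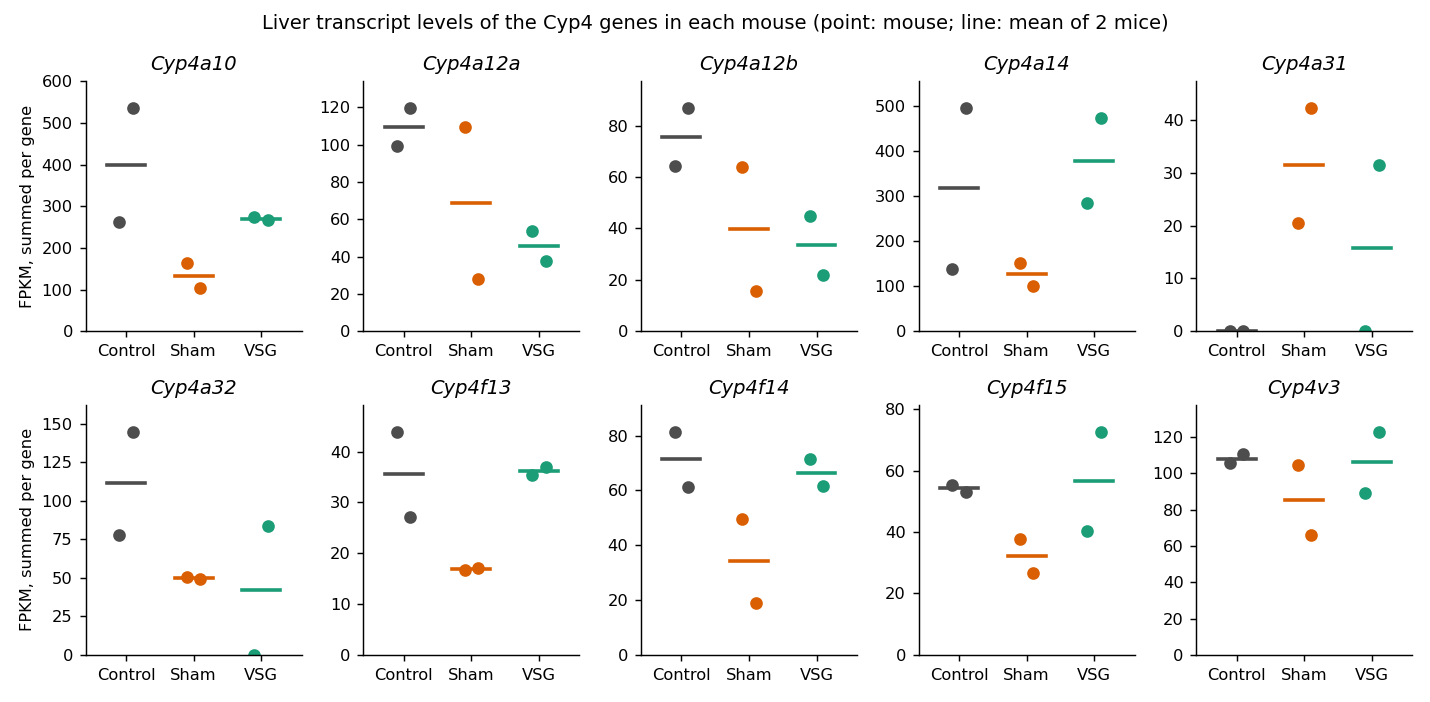
FPKM (linear axis from 0, summed over the transcripts of a gene) of the 10 Cyp4 genes in the 2 Control, 2 Sham and 2 VSG mice, each point a mouse and each line the mean of 2 mice. For Cyp4a10, Cyp4f13 and Cyp4f14 both Sham mice lie below the other 4, whereas Cyp4a12a and Cyp4a12b are lower in both VSG than in both Control mice and are spread widely in Sham mice.

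Among the PPARα-responsive members, Cyp4a10 stood at 263.2 and 536.2 FPKM in Control mice, at 162.9 and 102.7 in Sham mice and at 273.7 and 266.8 in VSG mice. The Sham mice overlapped neither other group, and Control and VSG mice overlapped. The fit on log2(FPKM + 1) gave a change from Control to Sham of −1.53 ± 0.44 (SE), with an adjusted p of 0.387 by limma over 11511 transcripts, and from Sham to VSG of 1.06 ± 0.44 (limma, adjusted p = 0.937). Cyp4a14, which needs no correction for copies, was at 139.1 and 496.5 FPKM in Control, 151 and 101.3 in Sham and 283.9 and 473.4 in VSG mice. The 2 Control mice differed 3.57-fold, and Control mouse 1 lay between the Sham mice. Both VSG mice were above both Sham mice, by 3.002-fold on the means, and the log2 change was 1.56 ± 0.68 with a 95% interval of −0.21 to 3.33 (limma, adjusted p = 0.937). The ratio of Cyp4a14 to Cyp4a10 was 0.529 and 0.926 in Control, 0.927 and 0.986 in Sham and 1.04 and 1.77 in VSG mice. Both VSG mice had the higher ratios, with Sham mouse 2 next.

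Cyp4a32 and Cyp4a31, the near-identical neighbours of Cyp4a10, were listed at 0 in some mice. Cyp4a32 was listed at 77.8 and 145.1 FPKM in Control, 50.8 and 49.1 in Sham, and 0 and 84 in VSG mice. Cyp4a31 (NM_201640) was listed at 0 in both Control mice and in VSG mouse 1, and at 20.5 and 42.3 FPKM in Sham mice and 31.4 in VSG mouse 2. VSG mouse 1 thus had all FPKM of the trio on Cyp4a10. Whether a value of 0 is the absence of the transcript or the placing of shared reads on another copy was not tested, and the fitted changes of both genes that involve such values depend on the pseudocount and are no measure of size. Summed over the trio, as an alternative chosen after the data were seen, the levels were 340.9 and 681.3 FPKM in Control, 234.2 and 194.1 in Sham and 273.7 and 382.2 in VSG mice. The Sham mice again lay below the other groups, with a log2 change from Control to Sham of −1.17 ± 0.42 (limma, adjusted p = 0.465) and from Sham to VSG of 0.60 ± 0.42 (limma, adjusted p = 0.937).

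**Figure D2:**
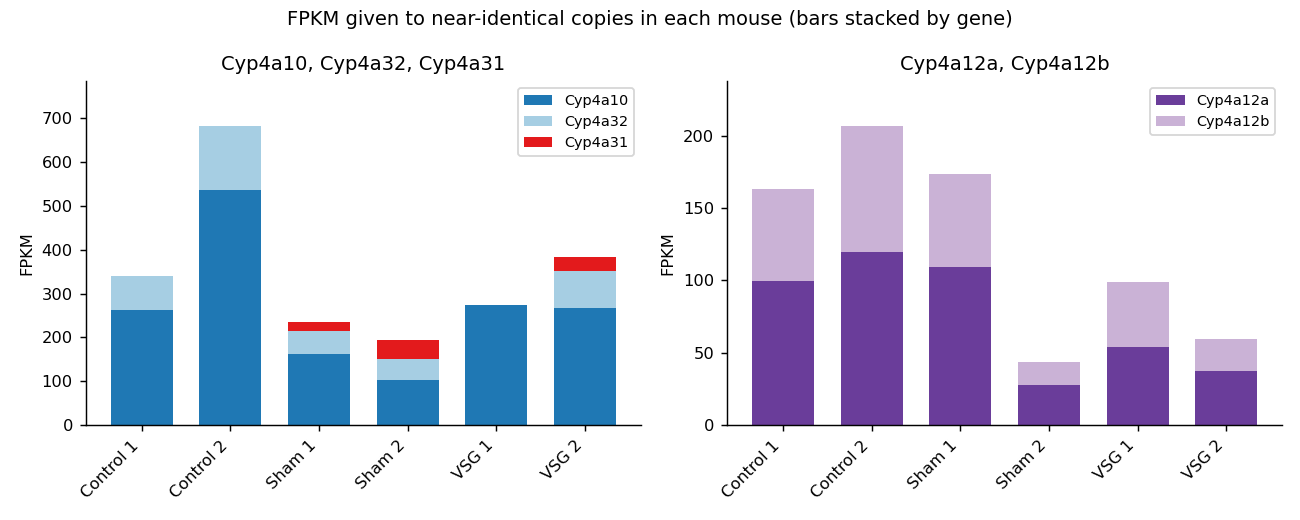
FPKM assigned to near-identical Cyp4a copies in each of the 6 mice, stacked by gene (left Cyp4a10, Cyp4a32 and Cyp4a31, right Cyp4a12a and Cyp4a12b; linear axes from 0). Cyp4a31 is above 0 only in both Sham mice and VSG mouse 2, and VSG mouse 1 shows Cyp4a10 alone, at 273.7 FPKM.

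The male-biased pair had a different course. Cyp4a12a stood at 99.3 and 119.7 FPKM in Control, 109.3 and 28.1 in Sham and 53.8 and 37.5 in VSG mice, and Cyp4a12b at 64.2 and 86.9, at 63.9 and 15.6, and at 44.9 and 21.9. Sham mouse 1 was at the level of the Control mice for both genes, and Sham mouse 2, the mouse with the low summed hepatocyte markers, was the lowest of all 6. The gap between the Sham mice was 3.88-fold for Cyp4a12a and 4.09-fold for Cyp4a12b. Both VSG mice were below both Control mice, by 2.40-fold on the means for Cyp4a12a and 2.26-fold for Cyp4a12b, with log2 changes of −1.26 ± 0.67 and −1.22 ± 0.74 (limma, adjusted p = 0.712 and 0.744). Since the pair shares so many windows, it was also summed, which gave 163.5 and 206.6 FPKM in Control, 173.2 and 43.8 in Sham and 98.7 and 59.4 in VSG mice. The summed log2 change from Control to VSG was −1.25 ± 0.70 (limma, adjusted p = 0.725). From Control to Sham, the log2 change was −0.96 for Cyp4a12a and −1.205 for Cyp4a12b, and without Sham mouse 2 it was 0.0038 and −0.22. From Sham to VSG it was −0.31 and −0.018 with all mice. Without Sham mouse 2 it was −1.265 and −1.001, and without Sham mouse 1 it was 0.655 and 0.97.

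Cyp4f13 had close replicates in Sham and VSG mice but not in Control mice, at 44 and 27.1 FPKM in Control, 16.8 and 17.1 in Sham and 35.5 and 36.9 in VSG mice. Both Sham mice lay below all others, 2.10-fold under the Control mean and 2.14-fold under the VSG mean. The log2 changes were −0.99 ± 0.28 from Control to Sham and 1.05 ± 0.28 from Sham to VSG (limma, adjusted p = 0.388 and 0.771). The latter adjusted p was the smallest of any member in that comparison. Cyp4f15 was at 55.5 and 53 FPKM in Control, 37.6 and 26.7 in Sham and 40.3 and 72.7 in VSG mice. Here too the Sham mice overlapped neither group, though VSG mouse 1 was close to Sham mouse 1, and the log2 changes were −0.76 ± 0.36 and 0.75 ± 0.36 (limma, adjusted p = 0.566 and 0.937). Without VSG mouse 2 the second was 0.34. With FPKM scaled by the summed hepatocyte markers of each mouse, the changes were −0.33 and 0.21.

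Cyp4f14 was spread over 3 detected isoforms, and summed over them it stood at 81.5 and 61.2 FPKM in Control, 49.6 and 19 in Sham and 71.5 and 61.5 in VSG mice. Both Sham mice lay below the rest, with log2 changes of the summed gene of −1.17 ± 0.48 and 1.08 ± 0.48 (limma over 9769 genes, adjusted p = 0.471 and 0.943). The isoforms were unevenly spread. NM_022434 was at 34.7 and 29.8 FPKM in Control, 0 and 8.80 in Sham and 19.2 and 33.1 in VSG mice, and NM_001204333 at 27.7 and 21.3, at 0 and 4.5, and at 30.7 and 11.7. In Sham mouse 1 both were listed at 0 and NM_001204334 held 100% of the gene, at 49.5 FPKM, whereas it held 16.5% to 30.2% in the other 5 mice. Whether the values of 0 reflect how reads were divided among them was not tested. NM_001204333 had the smallest adjusted p of any member from Control to Sham (limma, 0.371), with a value of 0 in Sham mouse 1. Without Sham mouse 2, NM_022434 passed the threshold against both other groups, with log2 changes of −5.05 from Control to Sham and 4.71 from Sham to VSG. This rests on Sham mouse 1 alone, where the transcript was listed at 0, and the spread in that fit came from the Control and VSG mice only.

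Cyp4v3 varied least between the groups. It was at 105.8 and 110.5 FPKM in Control, 104.4 and 65.8 in Sham and 89.4 and 123 in VSG mice. The Sham mice were below both Control mice, Sham mouse 1 only just, and VSG mice overlapped both other groups. The log2 changes were −0.38 ± 0.31, 0.34 ± 0.31 and −0.04 ± 0.31 for Sham against Control, VSG against Sham and VSG against Control (limma, adjusted p = 0.713, 0.937 and 0.992). Without Sham mouse 2 the first was −0.05 and the second 0.0071.

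No member passed an FDR of 10% in any of the 3 comparisons by limma. From Control to Sham, 0 of 12 transcripts were called against 0.347% of all 11511 tested (40 transcripts), and 5 of 12 had an unadjusted p under 0.05, as did 1177 of all transcripts. From Sham to VSG, 0 of 12 were called against a background of 0.0782% (9 transcripts), and 3 members and 571 transcripts had an unadjusted p under 0.05. Between Control and VSG, 0 of 12 were called against 0.217% (25 transcripts), and 0 members and 958 transcripts had an unadjusted p under 0.05. With 2 mice against 2, an exact permutation test of a single gene cannot go below p = 0.333, so calls of single genes rest on the variance that limma shares across transcripts. The median SE of the members was 0.71 on the log2 scale, against 0.40 over all transcripts.

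The direction of the members was nevertheless uneven between comparisons. In Sham mice 8 of 12 transcripts lay below both Control mice without overlap, where 20.0% of all transcripts did so, and 1 of 12 lay above (Cyp4a31, against 22.7%). Among the 8, Cyp4a12b (63.88 FPKM in Sham mouse 1, 64.15 in Control mouse 1) and Cyp4v3 (104.4 and 105.8) lay only just below. The 8 also hold NM_001204333 and NM_022434 of the same gene, Cyp4f14, both listed at 0 in Sham mouse 1, so they are not separate observations. Summed per gene, 7 of 10 genes lay below, against 20.6%. With median centring 6 of 12 transcripts lay below, against 19.9%. In VSG mice 6 of 12 transcripts lay above both Sham mice, against 18.3%, and 0 of 12 below, against 9.42%. The same isoforms of Cyp4f14 are among the 6, and summed per gene 5 of 10 genes lay above, against 18.6%. Compared with Control mice, 0 of 12 transcripts lay above in both VSG mice, against 30.7%, and 2 of 12 below, against 14.6%, these being Cyp4a12a and Cyp4a12b. The median log2 change of the 12 transcripts was −1.03, 0.55 and −0.19 in the 3 comparisons, beside 0.02, 0.09 and 0.12 over all transcripts, and without Sham mouse 2 the first was −0.66 and the second 0.26. Without that mouse 8 of 12 lay below Control in the remaining Sham mouse, against 35.2% of all, and in VSG mice 6 of 12 lay above it, against 36.1%, and 3 of 12 below, against 30.3%. The first pair of comparisons shares the Sham mice, so opposite directions in them are not separate observations. When FPKM was scaled by the summed hepatocyte markers of each mouse, a sum led by Fabp1 and Apoa1, an alternative chosen after the data were seen, which moved the median of all transcripts to 0.38 (Sham against Control) and −0.36 (VSG against Sham), 4 of 12 transcripts lay below Control in Sham mice (5.82% of all) and 3 of 12 above Sham in VSG mice (3.45% of all), and the members' medians became −0.61 and −0.0037. Fabp1 is also on the list of PPARα targets, so this scaling does not separate hepatocyte content from a change shared by such targets. The part of hepatocyte content in these differences was not tested.

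**Figure D3:**
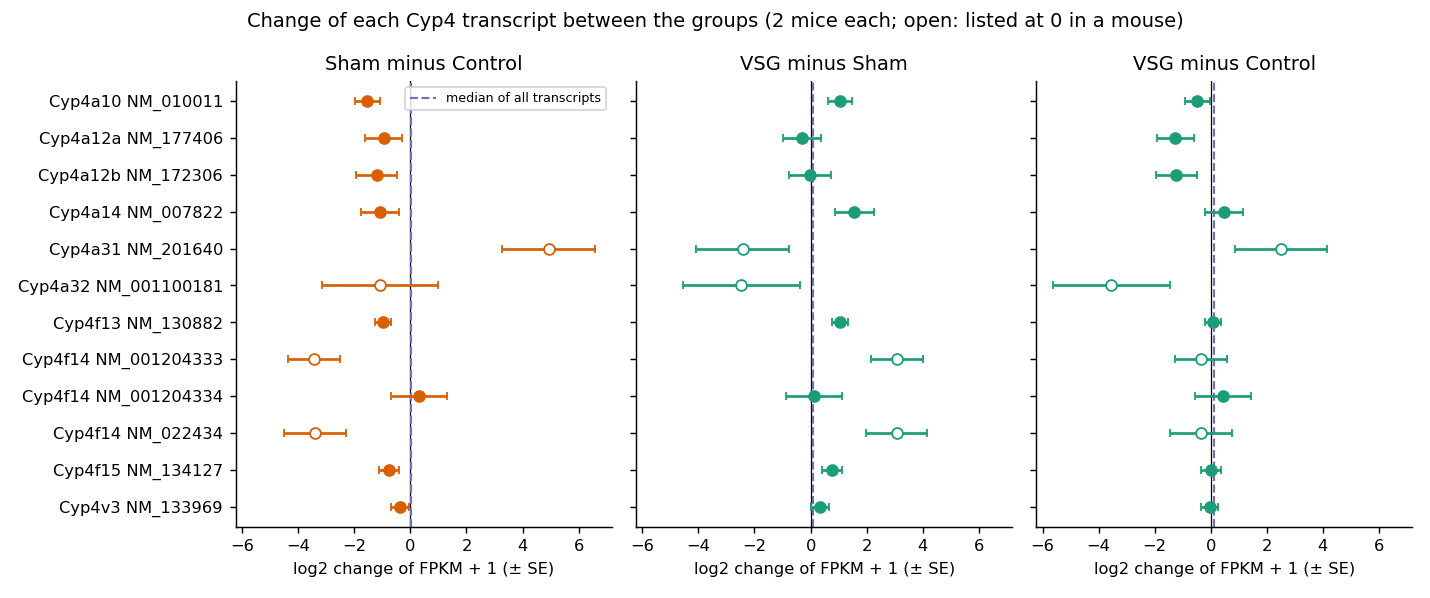
log2 change of FPKM + 1 with its SE from the limma fit (x axis) for the 12 tested Cyp4 transcripts (y axis) in the 3 comparisons of 2 against 2 mice; the dashed line is the median of all 11511 transcripts, and open points mark transcripts listed at 0 in at least 1 mouse. In Sham minus Control, 10 of 12 points lie below 0 (48.3% of all transcripts), and in VSG minus Sham 4 of 12 do (40.2% of all); no change passed an FDR of 10%.

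Genes around the CYP4 reaction were compared with the members from fixed lists. Electron donors and helpers of P450 enzymes (5 genes, among them Cyb5a, Pgrmc1 and Por, the P450 reductase) had 0 calls in each comparison and median log2 changes of −0.16, 0.55 and 0.21 for Sham against Control, VSG against Sham and VSG against Control. Por was at 121.6 and 178.3 FPKM in Control, 80.9 and 150 in Sham and 101.4 and 287.9 in VSG mice, so its groups overlapped throughout. The downstream list of dehydrogenases and peroxisomal enzymes (23 transcripts of 20 genes) likewise had 0 calls, with medians of −0.15, 0.34 and 0.16. PPARα targets other than the members (28 transcripts of 25 genes) had 0 calls and medians of −0.20, 0.27 and 0.13, with 10 of 28 below and 3 of 28 above Control in Sham mice without overlap (20.0% and 22.7% of all transcripts), and 8 of 28 above and 1 of 28 below Sham in VSG mice (18.3% and 9.42%).

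Fabp1, the liver fatty acid binding protein and the most abundant gene of the PPARα list, was at 8787 and 7670 FPKM in Control, 13057 and 3214 in Sham and 15153 and 10163 in VSG mice. Sham mouse 2 was the lowest of all 6, and Sham mouse 1 lay between the VSG mice.

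Male-biased genes (11 transcripts of 9 genes) had a median log2 change of −1.05 from Control to Sham, 0.65 from Sham to VSG and −0.10 from Control to VSG, with 0 calls each. Selenbp2 of this list was at 482 and 264.7 FPKM in Control, 200.1 and 34.1 in Sham and 198 and 49.8 in VSG mice. It was below Control in both other groups, with its lowest value in Sham mouse 2. Nudt7, a peroxisomal CoA diphosphatase of the same list, was at 228.9 and 315.6 FPKM in Control, 463.3 and 157.7 in Sham and 614.5 and 369.1 in VSG mice, so its sum over transcripts lay above Control in both VSG mice. Its transcripts disagreed from Control to VSG, with log2 changes of 0.89 for NM_024437, 0.99 for NM_024446 and −4.09 for NM_001290181 (limma, adjusted p = 0.686, 0.828 and 0.452). Cyp2d9, the most abundant gene of the list, was at 1053 and 838.7 FPKM in Control, 1018 and 333.3 in Sham and 1044 and 802.5 in VSG mice, so only Sham mouse 2 stood apart. Female-biased genes (10 transcripts of 9 genes) had medians of −0.99, 0.04 and −0.84, also with 0 calls. Acute phase genes had medians of 0.75, −0.96 and 0.23, Kupffer cell markers 1.03, 0.51 and 1.89 and neutrophil markers 1.84, −0.84 and 1. Their summed levels were 34.2 to 51.7 FPKM in Control, 122.3 to 133 in Sham and 101.1 to 328.7 in VSG mice for 10 Kupffer markers, and 5.33 to 14.1, 43.4 to 47.2 and 17 to 23 FPKM for 9 neutrophil markers, of which Ly6g was at 0. Most of the neutrophil sum was S100a8 and S100a9, and the neutrophil medians rest on 4 transcripts of 3 genes. Of the Kupffer transcripts, 7 of 10 lay above both Control mice without overlap in Sham mice (22.7% of all transcripts) and 7 of 10 in VSG mice (30.7%). The 8 hepatocyte transcripts had medians of −1.31, 0.87 and −0.38 beside −1.03, 0.55 and −0.19 for the members. Of these only Tat passed the test, and it was lower in Sham and in VSG than in Control mice by log2 changes of −2.84 ± 0.24 and −2.47 ± 0.24 (limma, adjusted p = 0.0419 and 0.0791). Of the hepatocyte transcripts, 3 of 8 lay below both Control mice in Sham mice (20.0%) and 4 of 8 above both Sham mice in VSG mice (18.3%). The summed markers of other resident cells differed between the groups too, and not all in the direction of the members. None of their tested transcripts passed the threshold in any comparison. Sinusoidal endothelial markers (9 genes, none at 0 in all 6 mice) summed to 46.4 and 18.4 FPKM in Control, 9.44 and 6.03 in Sham and 30.3 and 26.3 in VSG mice, and stellate cell markers (11 genes, none at 0 in all 6 mice) to 92 and 77.9, to 23.1 and 38.2, and to 76.7 and 111.1. Both sums were thus lowest in the 2 Sham mice, where 6 of 8 and 8 of 10 transcripts lay below both Control mice without overlap (20.0% of all). Cholangiocyte markers (7 genes, none at 0 in all 6 mice) summed to 30.7 and 32.8 FPKM in Control, 185.7 and 63 in Sham and 144.7 and 30.9 in VSG mice, but nearly all of this was Spp1, which stood at 28.5 and 29.4, at 183.1 and 58.4, and at 142.6 and 29.2. Krt19, Epcam, Krt7 and Cftr were at 1.007 FPKM or lower in each mouse, with means in Sham mice below those in Control mice. Sox9 went the other way, at 0.384 and 1.26 FPKM in Control, 2.05 and 2.75 in Sham and 0.814 and 0.477 in VSG mice. The mean of Sctr was also higher in Sham (0.076) than in Control mice (0.049). The sum thus describes Spp1 and not each marker of the list. The part of these cells in the members' differences was not tested.

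Other genes of family 4 were near the limit of the table. Of 12 listed, 10 were in it and Cyp4x1 was at 0, and their summed FPKM was 0.936 to 7.44 per mouse, against 467.8 or more for the members. Cyp4b1, at the end of the Cyp4a cluster, was at 3.85 and 1.79 FPKM in Control, 0.198 and 0.114 in Sham and 0.526 and 1.9 in VSG mice, a log2 change from Control to Sham of −1.67 ± 0.47 (limma, adjusted p = 0.387).

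Across the 6 mice, the gene most like Cyp4a12a in log2(FPKM + 1), among 5381 genes with a mean of at least 5 FPKM, was its copy Cyp4a12b (Pearson r = 0.976), followed by Pelo (0.972) and Creld1 (0.955). For Cyp4f14 these were Cox6c (0.996), the male-biased Hsd3b5 (0.991) and Mrps22 (0.983). Hsd3b5 was at 29.8 and 15.6 FPKM in Control, 9.45 and 0.401 in Sham and 32.1 and 14 in VSG mice. For Cyp4a14 they were Gpd2 (0.973), Tent4b (0.969) and Mir3060 (0.965), the last listed at 0 in 3 mice. Such r describe 6 mice only, they share the libraries and the low Sham mouse 2, and the best of so many genes are high by selection. Cyp4a12a was little like Cyp4a14 (r = 0.138) or Cyp4f13 (r = 0.093), and more like Cyp4f14 (r = 0.593), Cyp4a10 (r = 0.561) and Cyp4v3 (r = 0.539). Cyp4a10 was nearest to Cyp4a14 (r = 0.819), ahead of Cyp4f14 (r = 0.756).

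Open chromatin was then examined at the start sites of the members. The authors merged the 2 mice of each group into a single peak list, 42204 peaks long for Control, 52881 for Sham and 44539 for VSG mice, so there is no replicate error and no test, and the depth is unknown. Signals were used only as percentiles within their own list. The lists differ in length and in median signal (0.252 for Control, 0.398 for Sham and 0.298 for VSG mice). A percentile depends on the other peaks of its list, so percentiles of different groups do not measure a change in openness. A peak lay within 1000 bp of the start site of 8 members in Control and of 6 members in each of Sham and VSG mice, against 48.3%, 48.1% and 49.5% of 22380 protein-coding genes. The subfamilies differed. All 3 Cyp4f genes and Cyp4v3 had such a peak in every list, whereas Cyp4a14 and Cyp4a31 had none in any list, Cyp4a10 and Cyp4a12b had a peak in Control only, and Cyp4a12a and Cyp4a32 had a peak in all 3. The difference between the groups depended on the definition. A peak covered the start site itself for 5, 6 and 4 members (Control, Sham, VSG), lists of equal length gave 8, 5 and 5 with Cyp4a12a no longer counted in Sham or VSG, and a window of 5000 bp gave 8, 6 and 7 with Cyp4a10 counted in VSG.

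At Cyp4f13 the peak over the start site was among the strongest of each list, at percentile 99.3 in Control (chr17:33084139-33084909), 99.5 in Sham (chr17:33084148-33084845) and 99.6 in VSG mice (chr17:33084167-33084569). The strongest peaks at Cyp4f15 were at percentiles 93.4, 94 and 88.8 and those at Cyp4v3 at 87.1, 92.1 and 87.7. Cyp4f14 had a peak of 483 to 677 bp at its start site, at percentiles 80.1, 75.7 and 71.5.

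The Cyp4a peaks were short and weak. At Cyp4a12a they were 145 to 180 bp long and lay over the start site at chr4:114971531-114971700 in Control, chr4:114971520-114971699 in Sham and chr4:114971536-114971680 in VSG mice, at percentiles 34.6, 6.75 and 0.23. At Cyp4a12b only Control mice had a peak (chr4:115084092-115084250, percentile 28.4), and at Cyp4a10 likewise (chr4:115190936-115191119, percentile 13.9). At Cyp4a32 the Control peak lay inside the gene (chr4:115273610-115273820, percentile 11.4), and the Sham peak lay upstream and ended on the start site, and the VSG peak ended 7 bp before it (chr4:115273346-115273574 and chr4:115273354-115273567, percentiles 33.8 and 30.9). With the 50% of peaks of highest signal in each list, 0 Cyp4a genes and all 4 other members kept a start-site peak in each group. Cyp4a10 and Cyp4a14, the most abundant members, thus had a weak peak in a single list and no peak. The order of FPKM and the order of peak rank differed among the members.

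FAIRE reads were kept only where they mapped to a single place, so the uniqueness of the start sites was measured with 100-base windows, the length of a FAIRE read, over 1000 bp on each side and the whole mm9 genome. All windows at Cyp4a14, Cyp4a31 and the 4 Cyp4f and Cyp4v3 start sites occurred at a single place, as did 97.3% of those at Cyp4a10 and at Cyp4a32. Only 54.2% at Cyp4a12a and 53% at Cyp4a12b did. Reads were paired, and single windows do not show how many pairs can be placed, so the part of uniqueness in the peaks was not tested.

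**Figure D4:**
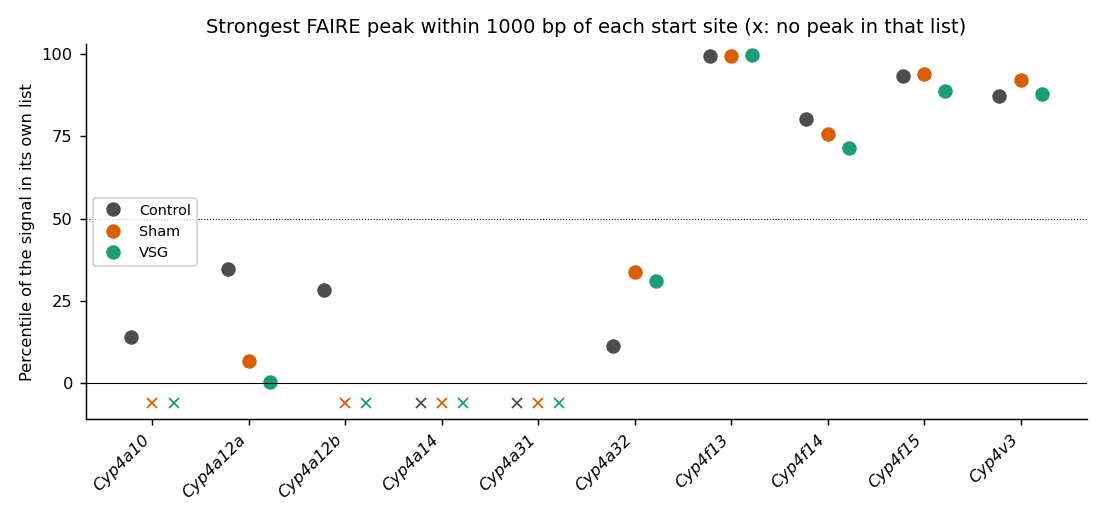
Percentile of the signal, within the list of its own group, of the strongest FAIRE peak within 1000 bp of the start site of each Cyp4 gene (points, coloured by group; crosses, no peak in that list; dotted line, the median peak). The Cyp4f and Cyp4v3 points lie between 71.5 and 99.6 in all 3 groups, and every Cyp4a point lies at 34.6 or lower.

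Within 10 kb of the gene bodies, the 3 lists merged into 8 peak regions for the 6 Cyp4a genes, of which 1 was present in all groups, 4 in Control only, 1 in Sham only, 1 in VSG only and 1 in Sham and VSG. For the Cyp4f genes, 7 of 14 regions were present in all groups, and for Cyp4v3 3 of 4. The region seen only in Sham mice in the Cyp4a cluster was inside Cyp4a12a (chr4:114998774-114998977, percentile 29.4), and the VSG-only region lay upstream of Cyp4a10 (chr4:115186564-115186858, percentile 7.4). None of the sites that the authors list as variable in accessibility lay within 100000 bp of a member. The nearest of the 414 sites that were more open in VSG than Sham mice was 1076803 bp from Cyp4f13, and the nearest of the 99 more open in Sham than VSG mice was 1494876 bp from Cyp4a32.

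The RefSeq promoter table (GRCm38.p6, 250 bases before to 50 after a start) held 5 of the 10 members, Cyp4a32, Cyp4f13, Cyp4f14, Cyp4f15 and Cyp4v3. Cyp4a10, Cyp4a12a, Cyp4a12b, Cyp4a14 and Cyp4a31 were not matched. The 250 bases upstream of Cyp4a32 (chr4:115600688-115600937, plus strand) and of Cyp4v3 (chr8:45333164-45333413, minus strand) are shown, with CG dinucleotides in capitals. Cyp4a32 had weak and Cyp4v3 strong start-site peaks, but the CG count of Cyp4v3 is not typical of the members with strong peaks.
Cyp4a32: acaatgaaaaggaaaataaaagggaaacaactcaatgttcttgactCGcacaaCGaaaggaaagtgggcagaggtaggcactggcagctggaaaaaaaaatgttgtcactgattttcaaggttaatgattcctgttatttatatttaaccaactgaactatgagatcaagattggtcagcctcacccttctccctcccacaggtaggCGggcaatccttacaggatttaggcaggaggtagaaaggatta
Cyp4v3: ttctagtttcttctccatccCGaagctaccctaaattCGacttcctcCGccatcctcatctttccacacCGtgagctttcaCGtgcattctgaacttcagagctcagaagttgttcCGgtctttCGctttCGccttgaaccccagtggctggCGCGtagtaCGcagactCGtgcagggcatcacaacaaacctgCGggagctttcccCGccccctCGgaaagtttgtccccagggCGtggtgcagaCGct
Cyp4a32 had 3 CG dinucleotides and a GC content of 41.6%, and Cyp4v3 had 17 and 55.6%, beside medians of 6 and 52.4% over the 32851 promoters of the table. Cyp4f13, with the strongest peak, had 3 CG dinucleotides, Cyp4f15 had 2, and the promoters of Cyp4f14 had 0 to 3. Among the members with strong peaks, only Cyp4v3 thus had a high count, and the Cyp4f genes had no more than Cyp4a32. None of the 8 promoters that the table gives for these 5 genes held a DR1-like element, the kind of site bound by PPAR with RXR, searched as AGGTCA, any base and AGGTCA again on either strand with at most 2 mismatches in the 12 set bases, and 3.86% of all promoters held it. With at most 3 mismatches Cyp4a32 and Cyp4v3 held it, as did 24.6% of all promoters. This says only that these letters are or are not in the window.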

How the data were processed

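RNA-seq was done on 2 livers each of Control, Sham and VSG mice, and FAIRE-seq on the same livers. The authors aligned 50-base RNA reads to mm9 with TopHat2 and computed FPKM per RefSeq transcript with Cufflinks, and the deposited FPKM values were used as they stand. The labels give poly(A) enrichment for these libraries and the study's methods rRNA depletion. For FAIRE, the authors aligned paired 100-base reads with bowtie1, kept uniquely mapped pairs, and deposited a peak list per group with an F-seq signal, keeping peaks found in both mice by IDR. The authors' tables of differential expression hold fold changes and p-values and were not used. RefSeq identifiers were matched to symbols for 34610 of 34933 transcripts. Changes were fitted with limma 3.58.1 (R 4.3.3) on log2(FPKM + 1) over 11511 transcripts with at least 1 FPKM in at least 2 mice, all 6 mice in 1 model with a variance trend, Benjamini-Hochberg adjustment per comparison and an FDR of 10%, and the fit was tested on simulated data. Fold changes on this scale understate those of low transcripts. Members and lists were chosen with earlier results of these data known. Named genes are all members, the 3 most abundant of each list (some of which are not reported here) and the 3 genes most like Cyp4a14, Cyp4a12a and Cyp4f14. The p-values measure the spread between these mice only. Sequences were read from NCBIM37, GENCODE vM1 and RefSeq with Python 3.11.15, and coding sequences were aligned end to end. Alternatives covered the pseudocount, filter, scaling, model, summing per gene or over copies, and leaving out each mouse.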

Additional observations from a re-analysis of the deposited data

How the results depend on the processing

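The absence of member calls held under every alternative run except leaving out Sham mouse 2, when NM_022434 of Cyp4f14 was called against Control and against VSG mice (0 to 1 called over the mice left out). Of 431 other refits of a member's change, 417 kept direction and call. Hepatocyte scaling, the summing of copies and the counts of groups without overlap were chosen after the data were seen. Depth is unknown and 2 mice per group limit every call. The causes of the shifts below were not tested, except that fewer mice or transcripts follow from an alternative's own construction.

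The number of transcripts called over the whole table moved most. From Control to Sham (40) it was 65 with a pseudocount of 0.1, 109 with no filter, 13 with a mean of at least 5 FPKM, 62 with no variance trend and 22 with only the 2 groups, and 0 to 221 over the mice left out, the top without Sham mouse 2. From Sham to VSG (9) it was 19 and 4 with pseudocounts of 0.1 and 5, 31 with no filter, 3 with a mean of at least 5 FPKM, 5 when summed per gene, 0 with only the 2 groups and 0 with hepatocyte scaling, and 0 to 110 over the mice left out. From Control to VSG (25) it was 49 with a pseudocount of 0.1, 86 with no filter, 8 with a mean of at least 5 FPKM, 46 with no trend and 54 with only the 2 groups, and 0 to 44 over the mice left out. With the replicate number as a block (replicate block) it was 12, 0 and 9, and no member was called; deviations of mice with the same number correlated at 0.115 (Control and Sham), 0.086 (Control and VSG) and 0.115 (Sham and VSG), so the numbers were not taken as pairs.

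The members' median log2 change from Sham to VSG was −0.0037 with hepatocyte scaling and 0.26 to 1.015 over the mice left out. From Control to VSG it was −0.30 with median centring, −0.33 with quantile normalization, −0.066 when summed per gene, −0.34 with only the 2 groups, −0.31 with hepatocyte scaling and −0.043 with copies summed, and −0.35 to 0.067 over the mice left out.

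Counts without overlap also shifted, here with the share of all transcripts in brackets; with copies summed the members make up 9 entries in place of 12. Above Control in Sham mice there were 0 with copies summed (22.7%) and 1 to 2 over the mice left out (22.7% to 44.2%). Below it there were 4 with hepatocyte scaling (5.82%), 6 with median centring (19.9%), 6 of 9 with copies summed (20.0%) and 8 to 11 over the mice left out (20.0% to 36.2%). Above Sham in VSG mice there were 3 with hepatocyte scaling (3.45%), 6 of 9 with copies summed (18.3%) and 6 to 10 over the mice left out (18.3% to 39.0%), and below it 1 (22.8%) and 0 to 3 (9.42% to 30.3%). Above Control in VSG mice there were 0 to 3 over the mice left out (30.7% to 49.3%), and below it 1 with copies summed (14.6%), the Cyp4a12 pair as a single entry, 4 with median centring (22.4%) and 2 to 6 over the mice left out (14.6% to 30.4%).

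Single changes that turned direction, none past the threshold, were these. With copies summed, the trio's change in place of that of Cyp4a31 was −1.17 from Control to Sham and −0.57 from Control to VSG, and in place of those of Cyp4a31 and Cyp4a32 it was 0.60 from Sham to VSG. Summed per gene, NM_001204334 of Cyp4f14 became −1.17 (Sham against Control) and −0.089 (VSG against Control). With hepatocyte scaling, Cyp4v3 became 0.049 (Sham against Control) and −0.22 (VSG against Sham), NM_001204334 −0.38 (VSG against Sham) and Cyp4f13 −0.058 (VSG against Control). Cyp4f13 in the last comparison was −0.044 with median centring and −0.10 with quantile normalization. A pseudocount of 5 gave −0.0073 for NM_001204334 (VSG against Sham) and 0.0021 for Cyp4f15 (VSG against Control).

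Changes of Cyp4a31, and those of Cyp4a32 that involve VSG mice, rest on values listed at 0 and measure no size. The change of Cyp4a32 from Control to Sham involves no 0 and was −1.075, with −1.088 and −1.021 at pseudocounts of 0.1 and 5. Over the mice left out, the change from Control to Sham ran from −1.92 to 0.0038 for Cyp4a12a and −1.15 to 1.765 for NM_001204334. From Sham to VSG it ran from −1.265 to 0.655 for Cyp4a12a, −1.001 to 0.97 for Cyp4a12b, −4.93 to 0.088 for Cyp4a31, −5.67 to 0.74 for Cyp4a32 and −1.335 to 1.58 for NM_001204334. From Control to VSG it ran from −0.99 to 0.038 for Cyp4a10, −0.44 to 1.39 for Cyp4a14, 0 to 5.02 for Cyp4a31, −0.27 to 0.40 for Cyp4f13, −1.001 to 0.32 for NM_001204333, −0.72 to 0.042 for NM_022434, −0.42 to 0.42 for Cyp4f15 and −0.27 to 0.18 for Cyp4v3.

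Start-site peaks in Control mice were found for 4 members among the 50% of peaks with the highest signal (4 also in Sham and in VSG mice) and for 5 when the peak had to cover the start site (6 in Sham and 4 in VSG mice); with lists of equal length it was 8, 5 and 5 and within 5000 bp 8, 6 and 7 (Control, Sham, VSG). A DR1-like element with at most 3 mismatches was found for 2 members.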
